A study of Homo sapiens with 12 samples.

Results

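The genes described here are 9 genes of MHC class I antigen presentation: HLA-E, HLA-F, B2M, TAP1, TAP2, TAPBP, PSMB8, PSMB9 and NLRC5. They were chosen by name, with earlier results of these data known. All 9 were found among the 38516 genes of the deposited expression table. All 9 also passed the filter on low values, which left 17823 genes for testing. The samples were 12 RNA-seq libraries of KYSE150 and KYSE510, established lines from human squamous cell carcinoma of the esophagus, grown in RPMI-1640 medium with 10% FBS. In each line, 3 control libraries were compared with 3 libraries of cells in which HCP5, a long non-coding RNA gene of the MHC region on chromosome 6, was silenced. Library titles begin with "sh" in all 4 groups, controls included, but the labels do not describe the silencing or control reagent. Nothing in the labels says that the replicates came from separate cultures, so p-values measure the spread between these libraries, which may be technical. Each line is a single line, and a difference between them cannot be extended to other tumors.

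MHC class I molecules show peptides from inside the cell to T cells and natural killer cells. Peptides are cut by the proteasome, in which PSMB8, PSMB9 and PSMB10 can replace PSMB5, PSMB6 and PSMB7 to form the immunoproteasome. TAP1 and TAP2 together carry the peptides into the endoplasmic reticulum, where TAPBP (tapasin) helps load them onto a heavy chain paired with B2M, the invariant light chain. NLRC5 is a transactivator of class I genes, and interferons raise the whole pathway through STAT and IRF factors.

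Most of these genes sit close together. Of the 9, 7 are on chromosome 6, and TAP2 (chr6:32821833-32838780, minus strand), PSMB8 (chr6:32840717-32844703, minus), TAP1 (chr6:32845209-32853978, minus) and PSMB9 (chr6:32844136-32859585, plus) lie within 37.8 kb. HLA-F is at chr6:29722775-29738528 (plus), HLA-E at chr6:30489467-30494205 (plus) and TAPBP at chr6:33299694-33314387 (minus). B2M is at chr15:44711477-44718877 (plus) and NLRC5 at chr16:56989485-57083531 (plus). These are gene spans on GRCh38 as the deposited table gives them.

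Promoter windows from RefSeq (GRCh38.p14, 250 bases before to 50 bases after a start) were found for 7 of the 9 genes, in 9 entries; HLA-E and NLRC5 had none in the table used. The core of the interferon response element, GAAANNGAA on either strand, was in a window of 6 of the 7 genes (HLA-F, B2M, TAP1, TAP2, TAPBP and PSMB8) and in 8.11% of all 35116 windows. For PSMB9 the letters were not in the window, which begins at chr6:32853942. The TAP1 matches lie outside that window, but between the RefSeq starts of TAP1 and PSMB9. A short kappaB-like pattern, GGGNNTTCC on either strand, was in windows of 3 genes (B2M, TAPBP and PSMB8) and in 6.58% of all windows. Longer kappaB forms were not searched, so genes outside these 3 may hold one. CCAAT on either strand was in windows of 4 genes (HLA-F, B2M, TAP1 and PSMB9) and in 34.6% of all windows. These matches are descriptions of letters and do not show binding. The 30 bases around the GAAANNGAA matches are shown because the genes that hold one were not all higher in the same line, as given below. Sequences read 5′ to 3′ on the strand of the gene, and capitals mark the match or the overlapping pair of matches, in reverse complement for HLA-F, TAP1 and PSMB8.
HLA-F, chr6:29723268-29723297: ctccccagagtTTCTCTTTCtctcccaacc
B2M, chr15:44711365-44711394: gactctaaGAAAAGGAAACTGAAaacggga
TAP1, chr6:32853816-32853845: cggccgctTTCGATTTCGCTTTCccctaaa
TAP2, chr6:32838779-32838808: gctggggaagcGAAAGCGAAagctgcccga
TAPBP, chr6:33314077-33314106: ctttggagGAAAGTGAAAGTGAAaggagga
PSMB8, chr6:32844032-32844061: gatctgtggctTTCGCTTTCacttcctcct

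TAP1 and PSMB9 are read in opposite directions from a shared stretch, and their RefSeq starts, at 32853704 and 32854192, are 488 bases apart. Between the outermost annotated exon of TAP1 and the nearest exon of PSMB9 in GENCODE release 29 lie 169 bases, shown on the strand of PSMB9 because both genes were higher in the same line. These bases do not include the TAP1 matches given above, which lie nearer the TAP1 start. For comparison, 160 bases upstream of B2M and outside any annotated exon are shown with their overlapping pair of GAAANNGAA matches in capitals.
TAP1 to PSMB9, chr6:32853979-32854147: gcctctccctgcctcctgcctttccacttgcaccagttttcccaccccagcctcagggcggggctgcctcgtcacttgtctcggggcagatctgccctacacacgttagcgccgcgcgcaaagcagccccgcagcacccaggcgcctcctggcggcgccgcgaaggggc
B2M upstream, chr15:44711317-44711476: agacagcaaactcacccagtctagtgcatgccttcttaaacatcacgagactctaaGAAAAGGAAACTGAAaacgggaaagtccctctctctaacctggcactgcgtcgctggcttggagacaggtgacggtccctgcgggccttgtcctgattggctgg

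Levels are given as deposited, in RPKM (reads scaled to the summed exon length of the gene and to the reads of the library). Libraries held 20035025 to 28202422 reads assigned to genes, and every silenced KYSE150 library was deeper than every KYSE150 control. The values of the 9 genes rested on 102 to 8158 reads each. HCP5, which checks the labels, was 0.779, 0.745 and 0.786 RPKM in KYSE150 controls and 0.315, 0.418 and 0.579 in silenced libraries. The KYSE510 controls had 0.914, 1.85 and 1.40 RPKM, and the silenced KYSE510 libraries had 0.505, 0.951 and 0.948. Silenced means were 56.8% and 57.6% of control, lower in every same-numbered pair of libraries, and only the KYSE150 groups did not overlap. Its log2 change was -0.45 (SE 0.20, limma adjusted p = 0.267) in KYSE150 and -0.53 (SE 0.20, adjusted p = 0.646) in KYSE510. With the libraries paired by number (replicate block), the adjusted p was 0.0556 and 0.134, and 0.0295 for the mean change over both lines. The epithelial list held KRT5, KRT14, KRT6A, KRT13 and TP63 of squamous epithelium, and the broader epithelial genes CDH1 and EPCAM. All 7 reached 0.5 RPKM in every group. Their summed level was 603 to 1138 RPKM in KYSE150 controls and 891 to 2048 in silenced libraries. The KYSE510 sums were 538 to 587 and 666 to 813. EPCAM alone was 86.1 to 95.3 RPKM in KYSE150 controls and 190 to 209 in KYSE510 controls. The leukocyte gene PTPRC, and PDGFRB, PECAM1 and VWF of stroma and endothelium, stayed under 0.1 RPKM in every group. COL1A1, the remaining stromal marker, was 0.0659 to 0.184 RPKM in KYSE150 and 0.501 to 0.800 in KYSE510. It passed the filter only through KYSE510, so its difference is given without a test. CD68, a macrophage marker, was 29.7 to 47.1 RPKM across all 12 libraries.

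The 9 genes differed between the lines in opposite directions. TAPBP, PSMB9, PSMB8, B2M and TAP1 were higher in KYSE510 controls, by 4.24-, 4.84-, 2.58-, 2.43- and 1.67-fold. HLA-F, HLA-E, NLRC5 and TAP2 were higher in KYSE150 controls, by 3.21-, 1.87-, 1.42- and 1.21-fold. A gene was counted as different at an adjusted p under 0.05 in limma's moderated test on log2(RPKM + 0.5), adjusted by the Benjamini-Hochberg method over all genes tested, and folds are on this scale. By that rule 9 of 9 differed between control lines, 5 higher in KYSE510 and 4 higher in KYSE150. The lines differed widely: 28.3% of all genes tested were higher in KYSE510 controls and 33.7% in KYSE150 controls. The 3 libraries of one line did not overlap the 3 of the other for 9 of 9 genes, against 64% of all genes. The median log2 difference of the 9 genes (KYSE510 minus KYSE150) was 0.74, against -0.07 over all genes. Exact permutation tests of 3 against 3 libraries gave two-sided p = 0.1 for each gene, the smallest possible. RNA was taken from bulk cultures, so fewer cells with a transcript and less of it per cell cannot be told apart.

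In silenced libraries the same 9 genes again differed between the lines, each with the sign it had in controls; for TAP2 the call was lost with median centring (adjusted p = 0.0666) and quantile normalization (adjusted p = 0.0560). Of all genes, 24.2% were higher in silenced KYSE510 and 39.8% in silenced KYSE150. The libraries of the lines did not overlap for 9 of 9 genes, against 69.7% of all genes. Adjusted p ran from 1.66e-06 (HLA-F) to 0.00539 (TAP1).

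**Figure D1:**
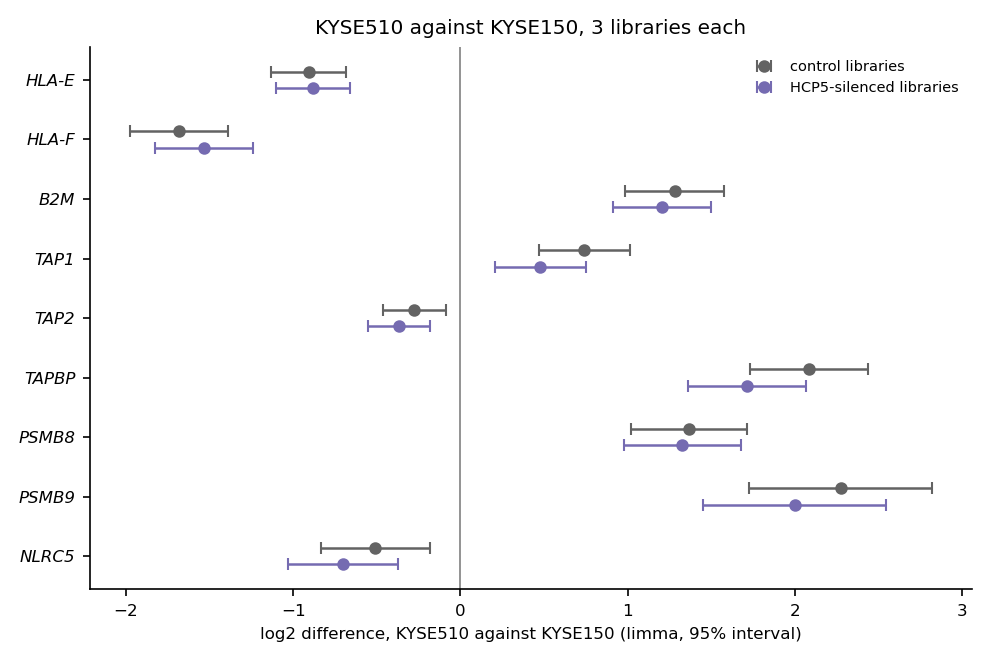
Log2 difference between KYSE510 and KYSE150 for each of the 9 genes (x axis, log2 scale; points are limma estimates, bars 95% intervals), in control and in HCP5-silenced libraries, 3 of each line. TAPBP, PSMB8, PSMB9, B2M and TAP1 lie to the right of 0 (higher in KYSE510) and HLA-E, HLA-F, TAP2 and NLRC5 to the left, in both sets.

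Silencing of HCP5 was not followed by a change past the adjusted threshold in any of the 9 genes, with 3 libraries a group. In KYSE150, 0 of 9 passed the threshold, where 0.499% of all genes tested did, and in KYSE510 0 of 9 did, where 0.0393% of all genes did. None had an unadjusted limma p under 0.05 in either line, where 18.1% (KYSE150) and 6.35% (KYSE510) of all genes did. With unpaired voom, limma's weighted fit to the recovered reads, none did either, against 18.5% and 6.15% of all genes. The largest estimated changes were -0.16 for PSMB8 in KYSE150 (95% interval -0.51 to 0.19) and -0.28 for PSMB9 in KYSE510 (95% interval -0.83 to 0.27), on the log2 scale. Silenced and control libraries overlapped for all 9 genes in both lines, while 19.2% of all genes did not overlap in KYSE150 and 12.1% in KYSE510.

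The estimates leaned to different sides in the lines. In KYSE150, 6 of 9 log2 changes were above 0, with a median of 0.02 against 0.08 over all genes. Centring each library on its median moved that all-gene median by -0.13, and the changes of all 9 genes in KYSE150 were then below 0. In KYSE510, 7 of 9 were below 0, with a median of -0.14 against -0.02 over all genes. For the mean change over both lines 0 of 9 passed (0.539% of all genes), and for the difference between the changes 0 of 9 passed, as did 0% of all genes. In the unpaired fits without centring, none of the 9 had an unadjusted p under 0.05 for the mean change or the difference. Of all genes, 11.5% in limma and 10.8% in voom did for the mean change, and 12.2% and 12.4% for the difference. Exact permutation p was 0.4 to 1.0 in KYSE150 and 0.2 to 0.7 in KYSE510.

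With same-numbered libraries paired, 0 of 9 genes passed in either line, against 6.7% of all genes in KYSE150 and 0.112% in KYSE510. Unadjusted p was then under 0.05 for 0 genes in KYSE150 and for 3 in KYSE510, namely TAP1, TAPBP and HLA-F, whose limma adjusted p over all genes was 0.223, 0.296 and 0.357. At that unadjusted level the paired fit held 30.8% of all genes in KYSE150 and 13.2% in KYSE510. For the mean change it held 1 of 9 genes, against 3622 of 17823 tested. For the difference it held 2 of 9, against 4610. Paired voom held 0 of 9 in KYSE150 and 5 of 9 in KYSE510, against 5949 and 2682 of 17823 genes. In KYSE510 this was a larger share of the 9 genes than of all genes, and the excess was not tested. Of the 9 changes in KYSE510 in that fit, 7 were below 0 and 2 above. Paired voom held 1 of 9 for the mean change and 3 of 9 for the difference, against 3716 and 4912. None of the 9 passed the adjusted threshold in paired voom. No interval of the paired fits is given here. The intervals of the unpaired fit leave the pairing by number out of account, so they describe that fit alone. In KYSE150 their lower ends were lowest for PSMB9 (-0.55) and their upper ends highest for PSMB9 (0.54), and the narrowest interval, for TAP2, ran from -0.15 to 0.23.

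**Figure D2:**
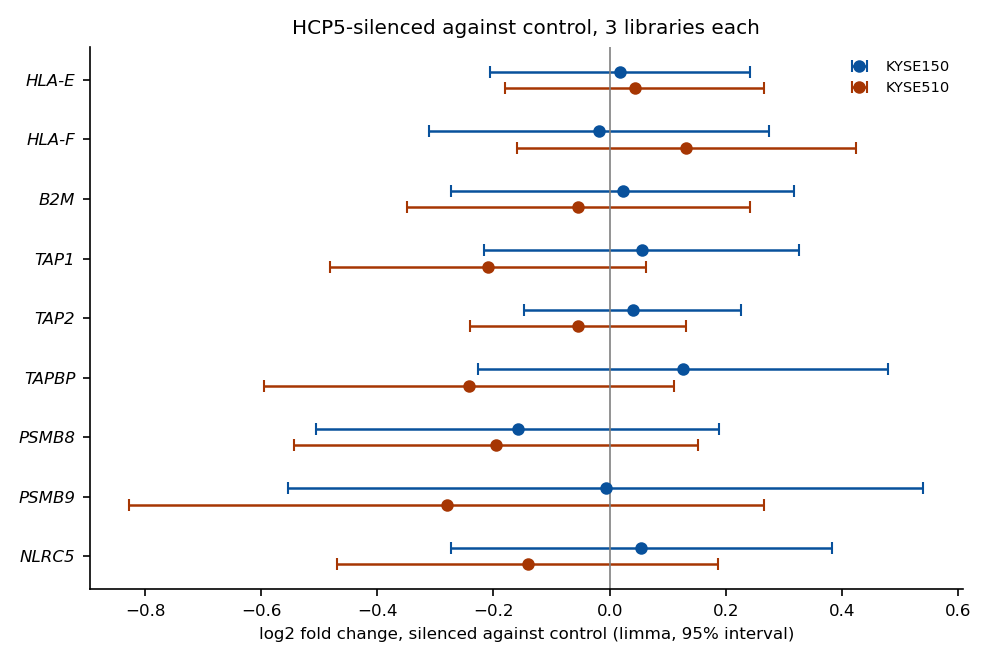
Log2 fold change of each of the 9 genes in silenced against control libraries (x axis, log2 scale; points are limma estimates, bars 95% intervals, 3 libraries per group) in KYSE150 and KYSE510. Every interval crosses 0. In KYSE150 the sign of HLA-E, B2M, TAP1, TAP2, TAPBP and NLRC5 flips to below 0 when libraries are centred on their median.

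HLA-E and HLA-F, the heavy chains among the 9 genes, were higher in KYSE150. HLA-E presents leader peptides of other class I molecules to natural killer cells. Its level was 94.8, 84.6 and 100.1 RPKM in KYSE150 controls (replicates 1, 2 and 3 in order, here and below) and 99.4, 82.4 and 101.7 in silenced libraries. The KYSE510 controls had 45.3, 51.9 and 51.2 RPKM and the silenced KYSE510 libraries 47.0, 53.9 and 52.0. Every KYSE150 library lay above every KYSE510 library, whatever the treatment. The log2 difference between control lines (KYSE510 minus KYSE150) was -0.91 (SE 0.10, adjusted p = 1.35e-05), and between silenced lines -0.88 (SE 0.10, adjusted p = 1.65e-05). Silencing gave 0.02 (SE 0.10) in KYSE150, with the silenced library higher in 2 of 3 numbered pairs. It gave 0.04 (SE 0.10) in KYSE510, higher in 3 of 3 pairs.

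HLA-F, a less abundant class I heavy chain, showed the largest difference of those higher in KYSE150. It was 12.4, 12.3 and 14.4 RPKM in KYSE150 controls and 12.5, 11.8 and 14.3 in silenced libraries. KYSE510 had 3.08, 3.69 and 4.43 RPKM in controls and 3.58, 4.06 and 4.74 in silenced libraries. Between control lines the log2 difference was -1.68 (SE 0.13, adjusted p = 7.60e-07) and between silenced lines -1.53 (SE 0.13, adjusted p = 1.66e-06). Silencing gave -0.02 (SE 0.13) in KYSE150 and 0.13 (SE 0.13, higher in 3 of 3 pairs) in KYSE510. The level of HLA-E was 7.16 ± 0.44 times that of HLA-F in KYSE150 controls and 13.4 ± 1.7 times in KYSE510 controls (SD, n = 3). The size of this ratio depends on the gene length used. The summed exon length is 2.66 times the longest principal transcript of GENCODE release 29 for HLA-F and 1.14 times for HLA-E. Of the exon bases of HLA-F in the table, 28.5% are shared with 3 genes of the opposite strand, among them HLA-F-AS1 (1.51 ± 0.29 RPKM in KYSE150 controls, 0.025 ± 0.013 in KYSE510 controls). The use of strand in counting is not given in the sources used here, so reads of these bases cannot be told apart. Class I heavy chain genes also resemble each other in sequence, and how the authors treated reads that fit several of them is not given, so their levels are uncertain.

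B2M, the invariant light chain of class I molecules, went the other way from HLA-E and HLA-F. It was 12.3, 11.02 and 13.6 RPKM in KYSE150 controls and 11.2, 12.01 and 14.3 in silenced libraries. KYSE510 controls had 26.7, 28.9 and 36.7 RPKM and silenced libraries 27.7, 27.8 and 32.9. All KYSE510 libraries were above all KYSE150 libraries, and control and silenced libraries overlapped within each line. The log2 difference was 1.28 (SE 0.13, adjusted p = 7.69e-06) between control lines and 1.21 (SE 0.13, adjusted p = 1.25e-05) between silenced lines. Silencing gave 0.02 (SE 0.13) in KYSE150 and -0.05 (SE 0.13) in KYSE510.

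TAP1 and TAP2, which form the peptide transporter as a heterodimer, did not differ in the same direction. TAP1 was 3.35, 3.84 and 4.397 RPKM in KYSE150 controls and 3.50, 3.90 and 4.71 in silenced libraries. KYSE510 controls had 5.96, 7.27 and 7.12 RPKM and silenced KYSE510 libraries 5.42, 6.19 and 5.75. Its log2 difference was 0.74 (SE 0.12, adjusted p = 0.000287) between control lines and 0.48 (SE 0.12, adjusted p = 0.00539) between silenced lines. All KYSE510 libraries were above all KYSE150 libraries, but within each line silenced and control libraries overlapped. In same-numbered pairs, TAP1 was higher in silenced libraries of KYSE150 in 3 of 3 and lower in silenced libraries of KYSE510 in 3 of 3. The estimates were 0.05 (SE 0.12) and -0.21 (SE 0.12), and limma's test of their difference gave adjusted p = 0.493.

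TAP2 was 10.8, 10.5 and 12.1 RPKM in KYSE150 controls and 11.6, 10.8 and 11.9 in silenced libraries. It was 8.52, 10.1 and 8.68 RPKM in KYSE510 controls and 8.64, 9.03 and 8.52 in silenced libraries. The groups of the lines were close, with the highest KYSE510 control just below the lowest KYSE150 control. The log2 difference was -0.27 (SE 0.08, adjusted p = 0.0146) between control lines and -0.37 (SE 0.08, adjusted p = 0.00262) between silenced lines. It missed the threshold between control lines when only the 6 control libraries were fitted (adjusted p = 0.0581) and when KYSE150 control 3, KYSE510 control 1 or KYSE510 control 3 was left out (adjusted p 0.0527, 0.0520 and 0.0544). Silencing gave 0.04 (SE 0.08) in KYSE150 and -0.05 (SE 0.08) in KYSE510. The TAP1 to TAP2 ratio of RPKM was 0.347 ± 0.032 in KYSE150 controls and 0.746 ± 0.065 in KYSE510 controls (SD, n = 3). Silenced libraries had 0.353 ± 0.047 and 0.662 ± 0.031. In KYSE510 the silenced libraries (0.627 to 0.685) lay below the controls (0.699 to 0.8205), while in KYSE150 they overlapped. This ratio was given no test. Of the exon bases of TAP2, 32.3% are shared with a gene of the same strand that the table lists as XXbac-BPG246D15.9 (20.6 ± 0.7 RPKM in KYSE150 controls, 16.6 ± 1.7 in KYSE510 controls), so the reads of those bases cannot be assigned to either.

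TAPBP, the chaperone that bridges the transporter and the heavy chain, differed strongly. It was 2.68, 2.83 and 3.54 RPKM in KYSE150 controls and 2.63, 3.42 and 4.04 in silenced libraries. KYSE510 had 11.5, 15.6 and 16.4 RPKM in controls and 11.2, 12.3 and 12.7 in silenced libraries. The lowest KYSE510 library was well above the highest of KYSE150. Between control lines the log2 difference was 2.09 (SE 0.16, adjusted p = 6.25e-07), and between silenced lines 1.72 (SE 0.16, adjusted p = 3.09e-06). Silencing gave 0.13 (SE 0.16) in KYSE150 and -0.24 (SE 0.16) in KYSE510, where all 3 silenced libraries were below the control of the same number. The difference between these changes, -0.37 (SE 0.23, adjusted p = 0.468), had the lowest adjusted p of the 9 genes. Leaving out KYSE510 control 1, the lowest control, moved the KYSE510 change to -0.39 (adjusted p = 0.481), and leaving out control 3 moved it to -0.15.

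The inducible proteasome subunits were also higher in KYSE510. PSMB8 was 13.9, 17.3 and 17.8 RPKM in KYSE150 controls and 12.4, 13.9 and 17.7 in silenced libraries. KYSE510 controls held 36.6, 46.1 and 45.9 RPKM and silenced KYSE510 libraries 33.6, 44.5 and 34.4. Each silenced library lay below the control of its number in both lines, 6 of 6, yet the groups overlapped and the changes, -0.16 (SE 0.16, adjusted p = 0.619) and -0.20 (SE 0.16, adjusted p = 0.942), did not pass. Their mean over both lines was -0.18, with an adjusted p of 0.179 when paired by number. The log2 difference between lines was 1.37 (SE 0.16, adjusted p = 1.72e-05) in controls and 1.33 (SE 0.16, adjusted p = 2.09e-05) in silenced libraries.

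PSMB9 had the largest difference between control lines and the widest spread among replicates. It was 2.13, 1.62 and 2.64 RPKM in KYSE150 controls and 1.35, 2.25 and 2.89 in silenced libraries. KYSE510 had 8.47, 14.7 and 14 RPKM in controls and 9.40, 11.3 and 8.91 in silenced libraries. The first KYSE510 control stood below the other KYSE510 controls. The log2 difference was 2.27 (SE 0.25, adjusted p = 1.10e-05) between control lines and 1.9999 (SE 0.25, adjusted p = 2.96e-05) between silenced lines. Silencing gave -0.01 (SE 0.25) in KYSE150 and -0.28 (SE 0.25) in KYSE510, and the latter was -0.52 without KYSE510 control 1 (adjusted p = 0.530) and -0.14 without control 2. PSMB8 shares 21.2%, TAP1 9.96% and PSMB9 5.66% of exon bases with PSMB8-AS1, of the opposite strand for PSMB8 and TAP1. PSMB8-AS1 was 3.28 ± 0.64 RPKM in KYSE150 controls and 7.17 ± 1.12 in KYSE510 controls.

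**Figure D3:**
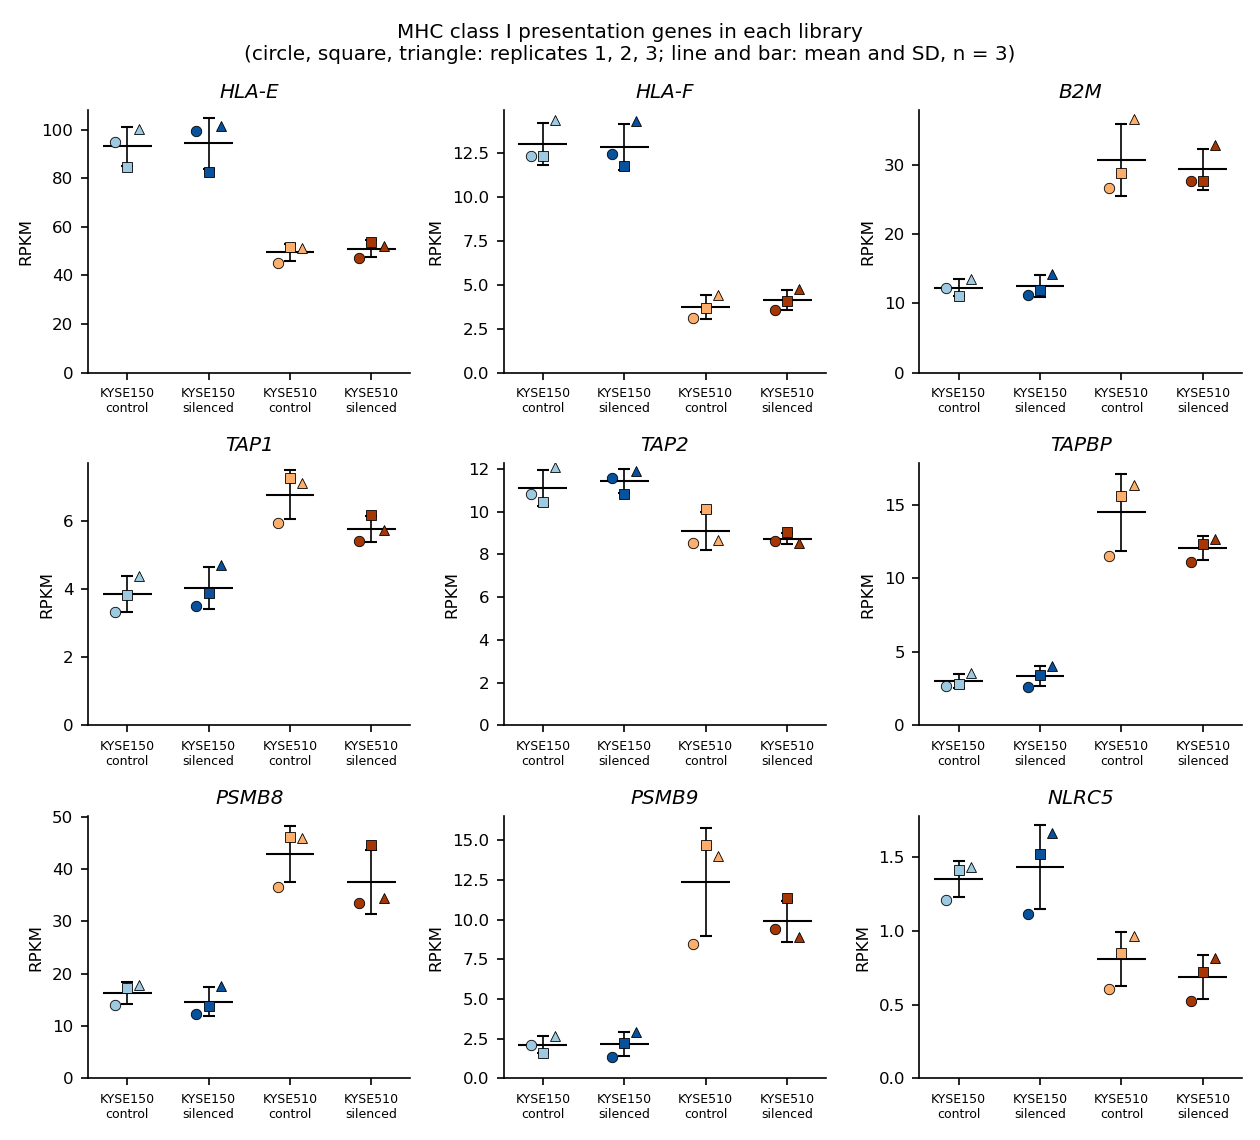
RPKM (y axis, linear, from 0) of each of the 9 genes in the 12 libraries, by group (x axis); symbols are replicates 1, 2 and 3, lines and bars the mean and SD of 3. Control and silenced libraries of a line overlap for every gene, while the lines stand apart for every gene; the gap is smallest for TAP2.

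Set against their constitutive partners, the inducible subunits took a larger share in KYSE510. PSMB5 and PSMB6 did not pass the test between control lines (log2 difference 0.18, adjusted p = 0.0873, and 0.01, adjusted p = 0.975), and PSMB7 was lower in KYSE510 (-0.31, SE 0.07, adjusted p = 0.00171). The PSMB8 to PSMB5 ratio of RPKM was 0.330 ± 0.026 in KYSE150 controls and 0.763 ± 0.091 in KYSE510 controls (SD, n = 3). For PSMB9 to PSMB6 it was 0.0450 ± 0.0051 and 0.262 ± 0.054. PSMB10, the remaining inducible subunit, was higher in KYSE510 controls by 1.21 on the log2 scale (SE 0.17, adjusted p = 8.65e-05), and its ratio to PSMB7 was 0.0839 ± 0.0176 and 0.251 ± 0.054. In silenced libraries the PSMB8 to PSMB5 ratio was 0.261 ± 0.038 in KYSE150 and 0.732 ± 0.136 in KYSE510. That of PSMB9 to PSMB6 was 0.0438 ± 0.0114 and 0.240 ± 0.019, and that of PSMB10 to PSMB7 was 0.0905 ± 0.0163 and 0.185 ± 0.007. The ratios were given no test. For all 3 the lines stood apart, and control and silenced libraries overlapped except for PSMB10 to PSMB7 in KYSE510, where the silenced libraries (0.178 to 0.191) lay below the controls (0.196 to 0.303).

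**Figure D4:**
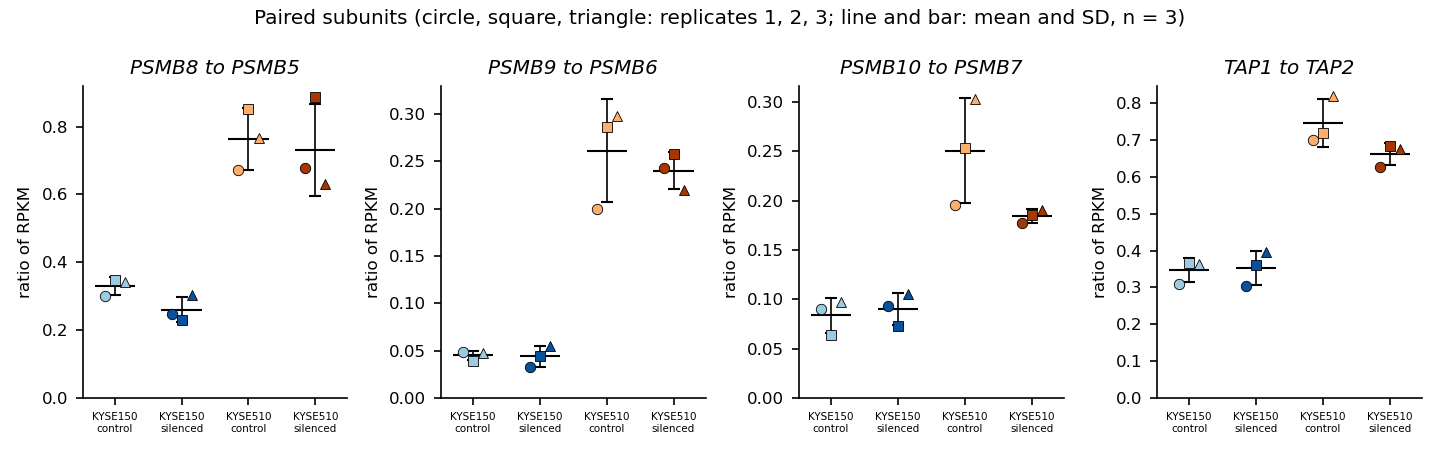
Ratio of RPKM (y axis, linear, from 0) of each inducible proteasome subunit to its constitutive partner, and of TAP1 to TAP2, in each of 12 libraries by group; symbols are replicates, lines and bars the mean and SD of 3. KYSE510 libraries lie above KYSE150 libraries in all 4 ratios.

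NLRC5, the transactivator, was the lowest of the 9 genes by mean in every group and was not higher where TAP1, B2M and PSMB9 were. It was 1.21, 1.41 and 1.43 RPKM in KYSE150 controls and 1.12, 1.52 and 1.67 in silenced libraries. KYSE510 had 0.61, 0.85 and 0.97 RPKM in controls and 0.52, 0.72 and 0.81 in silenced libraries. Its log2 difference was -0.51 (SE 0.15, adjusted p = 0.0113) between control lines and -0.70 (SE 0.15, adjusted p = 0.00156) between silenced lines. Since these levels are near the added 0.5 RPKM, the log2 scale understates the difference, and the ratio of mean RPKM was 1.67 in controls and 2.09 in silenced libraries, KYSE150 over KYSE510. Silencing gave 0.05 (SE 0.15) in KYSE150 and -0.14 (SE 0.15) in KYSE510, where the silenced library was lower in 3 of 3 pairs.

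The order of the 9 levels also differed between the lines. In KYSE150 controls it ran, by mean RPKM, from HLA-E (93.2) through PSMB8 (16.3), HLA-F (13.0), B2M (12.3) and TAP2 (11.1) to TAP1 (3.86), TAPBP (3.02), PSMB9 (2.13) and NLRC5 (1.35). From PSMB8 to TAP2 each neighbour overlapped the next across libraries, and so did TAP1 and TAPBP. In KYSE510 controls it ran from HLA-E (49.4), PSMB8 (42.9) and B2M (30.8), each overlapping the next, through TAPBP (14.5), PSMB9 (12.4) and TAP2 (9.11), again overlapping, to TAP1 (6.78), HLA-F (3.73) and NLRC5 (0.81). This order depends on the length used. The table divides by all annotated exon bases of a gene, 6089 for B2M and 2975 for HLA-E, where the longest principal transcript in GENCODE release 29 has 1705 and 2601. With principal transcript lengths, a choice made after the data were seen, B2M stood first in KYSE510 controls, and its ratio to HLA-E went from 0.622 to 1.94. In KYSE150 controls that ratio went from 0.132 to 0.412, and HLA-E stayed first. The ratio of RPKM of a gene between samples does not depend on this length, but a log2 difference with the added 0.5 RPKM does, most for low genes.

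Other genes of the pathway differed between the lines in both directions too. In a list of 19 further genes of peptide supply and loading, 12 differed between control lines, 10 higher in KYSE510 and 2 higher in KYSE150, where 62% of all genes tested differed. Its median log2 difference was 0.38, against -0.07 over all genes. Among 24 genes that regulate class I expression, 14 differed, 11 higher in KYSE510 and 3 higher in KYSE150, with a median of 0.24. Both totals are near the share over all genes. By side, 28.3% of all genes were higher in KYSE510 controls and 33.7% in KYSE150 controls, so both lists leaned toward KYSE510. This lean was not tested. All 43 genes passed the filter.

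The genes higher in KYSE510 by the most were HLA-B (12.9 ± 3.0 RPKM in KYSE150 controls, 92.5 ± 15.4 in KYSE510 controls, log2 difference 2.80), ERAP2 (1.40 ± 0.13 and 8.87 ± 1.87, 2.28), IFNGR1 (5.52 ± 0.53 and 25.3 ± 2.2, 2.10) and HLA-G (4.48 ± 1.28 and 18.1 ± 2.1, 1.92). HLA-B and HLA-G are heavy chains, ERAP2 trims peptides in the endoplasmic reticulum and IFNGR1 is a chain of the receptor for interferon gamma. Those higher in KYSE150 included RFXAP (4.77 ± 0.37 and 2.65 ± 0.12 RPKM, -0.74), STAT2 (3.30 ± 0.07 and 1.90 ± 0.39, -0.68) and EZH2 (23.6 ± 2.3 and 18.3 ± 0.1, -0.35). RFXAP is part of the RFX complex that binds class I promoters, STAT2 acts in type I interferon signalling and EZH2 is a histone methyltransferase. Heavy chains thus differed in both directions, with HLA-E and HLA-F higher in KYSE150 and HLA-B and HLA-G higher in KYSE510.

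Some genes that mark antigen-presenting cells moved with the line. HLA-DRA was at 0 in every KYSE150 library and 0.333 to 1.70 RPKM in KYSE510, and CD74 was at most 0.117 RPKM in KYSE150 and 2.36 to 6.61 in KYSE510. Of the 8 leukocyte and antigen-presenting cell markers, 1 reached 0.5 RPKM in KYSE150 and 4 in KYSE510. HLA-DRA, CD74 and CIITA passed the filter only through KYSE510, so no test between the lines is given for them. The summed level of the 8 was 34.7 to 41.4 RPKM in KYSE150 controls and 39.8 to 50.2 in KYSE510 controls, mostly CD68, with PTPRC under 0.1. Their part in the difference between the lines was not tested.

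After HCP5 silencing, 0 of the 43 other pathway genes passed the threshold in either line. An unadjusted limma p under 0.05 was found for 3 of 19 and 3 of 24 in KYSE150 and for 1 of 19 and 0 of 24 in KYSE510, against the 18.1% and 6.35% of all genes given above. With libraries paired by number (replicate block), 4 of 43 passed in KYSE150, where 6.7% of all genes did, and 0 in KYSE510. Among them, named after their values were seen, were IFNAR1 (log2 change 0.46, adjusted p = 0.0412), IFNGR2 (0.35, adjusted p = 0.0380) and PSME1 (-0.34, adjusted p = 0.0420). IFNAR1 and IFNGR2 are chains of interferon receptors, and PSME1 is part of a proteasome activator. Without KYSE150 control 3, 4 of the 43 passed in the unpaired fit, where 0 passed with it, and 7.31% of all genes passed instead of 0.499%.

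Within groups, the 9 genes deviated together from library to library. The mean of their log2 deviations from the group mean was below 0 in replicate 1 of 4 of 4 groups (-0.23 to -0.08) and above 0 in replicate 3 of 4 of 4 groups (0.04 to 0.20). HLA-F, B2M, TAPBP and NLRC5 had their highest library in replicate 3 in every group. Over 12 libraries, deviations of all 36 pairs of the 9 genes correlated above 0, with a median Pearson r of 0.66, from 0.17 (B2M with TAP2) to 0.93 (TAP1 with PSMB8). The points share libraries, and the median deviation of all genes tested moved to the same side in replicates 1 and 3. The genes most alike to the mean deviation, outside the lists and with at least 1 RPKM in every group, were TMEM94 (r = 0.99), WIPI2, PARP6, SDCBP and ZMYM2 (each r = 0.98). Such likeness was common: of 11945 genes considered the median r was 0.45, and 501 (4.19%) had an r above 0.9.

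**Figure D5:**
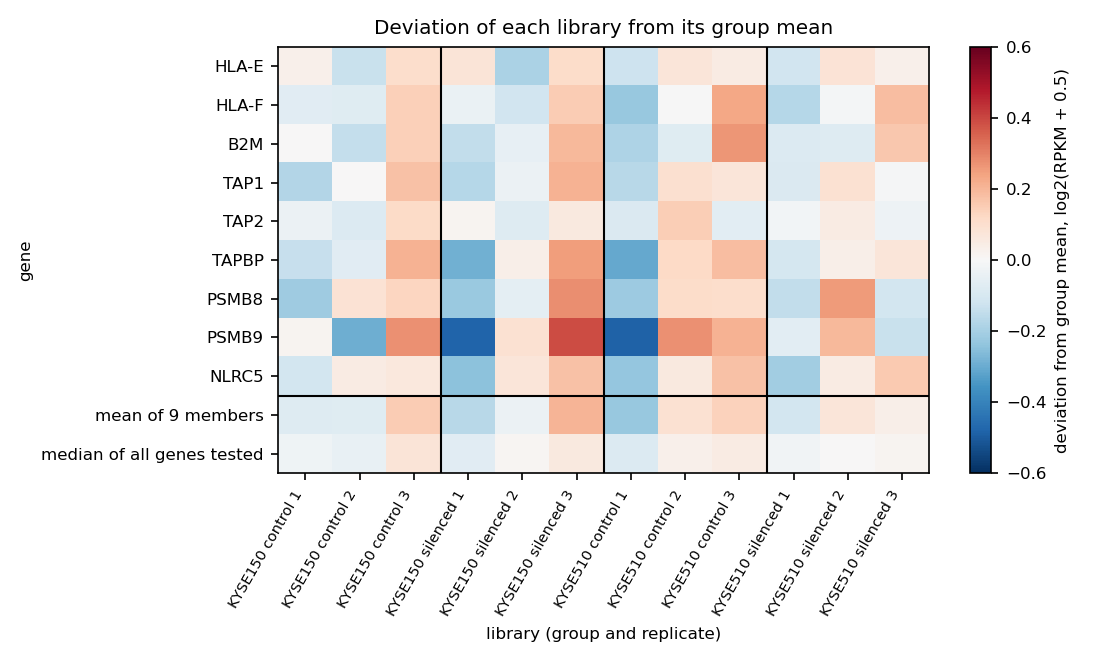
Deviation of each library from its group mean in log2(RPKM + 0.5) (color scale) for the 9 genes (rows), their mean and the median of all genes tested, in 12 libraries (columns, by group and replicate). The mean of the 9 genes is below 0 in replicate 1 and above 0 in replicate 3 of every group.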

How the data were processed

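RNA was extracted with TRIzol and sequenced after library preparation by standard Illumina procedures, per the labels' protocols. The submitters' processing notes name HISAT2, DESeq and GRCh38, without roles or versions. The authors deposited RPKM per gene, and per the file headers the position and length columns are those that featureCounts writes. The annotation release, use of strand, filters and handling of reads that fit several genes are not given in the sources used here. RPKM times gene length gave whole reads for 100% of values (within 0.05 of a read), so the reads behind each value were recovered. Because RPKM is scaled to all reads of a library, a few abundant genes can shift every value.

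Genes with at least 0.5 RPKM in at least 3 libraries were tested on log2(RPKM + 0.5) with limma 3.58.1 in R 4.3.3: 4 group means over 12 libraries, eBayes with a trend, 8 residual degrees of freedom, Benjamini-Hochberg adjustment over all genes tested and a two-sided threshold of 0.05. The script was tested on simulated data. Exact permutation tests used scipy 1.17.1. The reads of replicates gave a mean chi-square over genes of 11.3 to 40.7, far from sampling noise, and every library was kept as its own replicate.

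Replicate numbers come from the titles. Deviations from the group mean correlated at 0.147 to 0.415 between same-numbered control and silenced libraries of a line, in all 6 pairs, and at -0.385 to 0.184 between others, so the numbers were taken to pair libraries. The paired fit has 4 residual degrees of freedom and gives no value for differences between lines.

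The genes and lists were chosen with earlier results of these data known. All 9 genes and HCP5 were named throughout. From the lists, the text names genes past the threshold after silencing, up to 4 genes higher in each control line by size of the log2 difference with a mean of at least 1 RPKM in the higher line, and PSMB5, PSMB6, PSMB7 and PSMB10; some genes that the rule takes are not reported here. The 5 genes most alike were ranked by Pearson r. Alternatives were other pseudocounts, filters, scalings, voom, eBayes without a trend, the replicate block, the 6 libraries of a comparison alone and each library left out.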

Additional observations from a re-analysis of the deposited data

Results flagged for a closer look

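TAP1 moved to opposite sides in the lines after HCP5 silencing: the silenced library was higher than the control of the same number in 3 of 3 pairs of KYSE150 and lower in 3 of 3 pairs of KYSE510. The difference between the log2 changes (KYSE510 minus KYSE150) was -0.26 (SE 0.17, 95% interval -0.65 to 0.12, adjusted p = 0.493 in limma). The replicate block gave an adjusted p of 0.136 for it. The KYSE150 change of 0.05 turned to -0.07 with median centring and -0.08 with quantile normalization.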

How the results depend on the processing

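The counts of the 9 genes past the threshold kept their side under every alternative run: 0 after silencing in either line, on average and for the difference, the replicate block included, and 9 between control or silenced lines except where TAP2 missed it. TAP2 missed it in 4 of 21 alternatives between control lines, named in the report, and between silenced lines with median centring (-0.18, adjusted p = 0.0666) and quantile normalization (-0.18, adjusted p = 0.0560). None of the 9 differences between lines changed sign under these alternatives. After silencing, the 9 genes had adjusted p of 0.249 to 1.0 (KYSE150) and 0.113 to 1.0 (KYSE510) over 23 alternatives, and 27 of 207 and 3 of 207 log2 changes changed sign; the cause was not tested. In KYSE150, median centring gave HLA-E -0.11, B2M -0.11, TAP1 -0.0747, TAP2 -0.0899, TAPBP -0.0029 and NLRC5 -0.0754. Quantile normalization gave B2M -0.0645, TAP1 -0.0754, TAP2 -0.0557 and NLRC5 -0.0522, and voom with the replicate block gave PSMB9 0.02. With libraries left out in turn, the KYSE150 change ran from -0.0498 to 0.11 for HLA-E, -0.0951 to 0.0523 for HLA-F, -0.0754 to 0.0952 for B2M, -0.0488 to 0.14 for TAP1, -0.0005 to 0.0981 for TAP2, -0.20 to 0.23 for PSMB9 and -0.0331 to 0.18 for NLRC5. In KYSE510 it ran from -0.018 to 0.0995 for HLA-E, -0.15 to 0.0776 for B2M and -0.0979 to 0.0201 for TAP2. Median centring moved the all-gene median by 0.16 for the difference between changes and by 0.19 between silenced lines. Voom with the replicate block called HCP5 in KYSE150 (-0.81, adjusted p = 0.0221) and KYSE510 (-0.78, adjusted p = 0.0318), and 8 and 1 of the 43 other pathway genes, near the 19% and 2.23% of all genes that this fit called. The fewest reads behind a value were 102 for PSMB9 in KYSE150 and 155 for NLRC5 in KYSE510.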
